A study of Mus musculus with 11 samples.

Results

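The genes described here encode the 3 TGF-β ligands (Tgfb1, Tgfb2 and Tgfb3), the 3 TGF-β receptors (Tgfbr1, Tgfbr2 and Tgfbr3) and the 4 latent TGF-β binding proteins (Ltbp1, Ltbp2, Ltbp3 and Ltbp4). They were picked by gene symbol with no threshold on level, though earlier results of these data were known. Of the 10, 9 are among the 22600 genes of the merged count table. Ltbp4 was read from the counts deposited for each library instead, which hold 55401 genes. RNA came from whole distal tibiae of 11 mice at 24 weeks of age, of strain C57BL6/SJL and fed ad libitum, with 1 library per mouse. The controls (n = 4) are labelled BMAd-WT and the other mice BMAd-DTA (n = 7). The comparison asks how expression in bone differs once bone marrow adipocytes (BMAds) are depleted.

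Every mouse, controls included, carries Osterix-FLPo and FAC, an Adipoq-Cre that is turned on by the FLPo recombinase. Cre is therefore made in cells that have expressed Osterix and that express adiponectin, chiefly BMAds. BMAd-DTA mice also carry ROSA-DTA, which makes the toxic A chain of diphtheria toxin once Cre has removed a stop cassette, and control mice lack it. Recombination in this model is incomplete and increases with age, so some BMAds persist. The sample is a whole bone with its marrow, and in such bulk RNA fewer cells of a type and less RNA per cell cannot be told apart.

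The libraries held 16969529 to 18637663 counts in the merged table. All 11 listed osteoblast and osteocyte markers had counts in every library, and their summed level was 2054 to 7965 CPM (counts scaled to the size of each library) in controls and 10060 to 21290 CPM in BMAd-DTA mice. Col1a1 was the largest part of these sums, at means of 4720 and 12020 CPM. The 10 adipocyte markers summed to 1006 to 1695 CPM in controls and 391.8 to 1230 CPM in BMAd-DTA mice, and 1 of them, Retn, fell (log2 fold change -1.38, edgeR adjusted p = 0.0205). Skeletal muscle RNA divided the libraries in a way that genotype did not. Its 12 markers summed to 192.3 to 1414 CPM in 7 libraries (3 control and 4 BMAd-DTA, called muscle-rich here) and to 20.64 to 28.43 CPM in the other 4 (control 4 and BMAd-DTA 2, 3 and 5, called muscle-poor), with Myh1 at 0 counts in 1 BMAd-DTA library. This division was made after the data were seen, and values within the muscle-rich libraries are given beside the results they touch.

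TGF-β is made as a precursor, cut from its propeptide and stored in an inactive complex in which the propeptide still wraps the ligand. The latent TGF-β binding proteins (LTBPs) are secreted matrix proteins, and LTBP-1, LTBP-3 and to a lesser degree LTBP-4 bind this complex and fix it in the matrix, whereas LTBP-2 does not bind it. Freed ligand binds the type II receptor encoded by Tgfbr2, which activates the type I receptor encoded by Tgfbr1, which in turn phosphorylates SMAD2 and SMAD3. Betaglycan, the product of Tgfbr3, presents ligand, TGF-β2 above all, to the type II receptor. Bone matrix is a large store of latent TGF-β, which osteoclasts can release and activate and which recruits osteoblast progenitors.

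Promoter sequences from RefSeq (build GRCm38.p6) were at hand for 8 of the 10 genes, those other than Tgfb3 and Tgfbr3. The 150 bases before the start are shown for Tgfb1 and Tgfb2, the genes of highest and lowest level per length, and for Tgfbr1 and Tgfbr2, whose levels ran most closely together from mouse to mouse. Each is written 5′ to 3′ on the strand of its gene, and capitals mark matches, on either strand, to the GC box (GGGCGG), the TATA box (TATAAA) and the CCAAT box (CCAAT).
Tgfb1, chr7:25686852-25687001, plus strand: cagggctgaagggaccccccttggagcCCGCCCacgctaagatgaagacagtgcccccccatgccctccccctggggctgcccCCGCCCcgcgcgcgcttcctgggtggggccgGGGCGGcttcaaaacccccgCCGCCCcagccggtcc
Tgfb2, chr1:186705990-186706139, minus strand: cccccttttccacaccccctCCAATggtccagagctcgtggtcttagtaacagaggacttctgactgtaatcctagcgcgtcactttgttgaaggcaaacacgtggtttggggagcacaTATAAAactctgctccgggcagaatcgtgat
Tgfbr1, chr4:47353072-47353221, plus strand: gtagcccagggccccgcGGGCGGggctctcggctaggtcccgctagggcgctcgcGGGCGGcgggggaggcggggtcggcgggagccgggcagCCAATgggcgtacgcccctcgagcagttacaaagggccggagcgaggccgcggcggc
Tgfbr2, chr9:116175364-116175513, minus strand: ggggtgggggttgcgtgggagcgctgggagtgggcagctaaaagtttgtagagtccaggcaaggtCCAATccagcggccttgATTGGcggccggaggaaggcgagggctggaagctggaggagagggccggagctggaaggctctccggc

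The stretch before Tgfb1 held 4 GC boxes and neither of the other motifs, and 76.0% of its bases were G or C. The stretch before Tgfb2 had a TATA box that began 31 bases before the start, a CCAAT box and no GC box, with 51.3% G or C. Tgfbr1 had 2 GC boxes and 1 CCAAT box, and Tgfbr2 had 2 CCAAT boxes in opposite orientations and no GC box. Over all 32851 promoter entries the same window held a GC box in 28.6%, a TATA box in 7.57% and a CCAAT box in 24.5%, and the median share of G or C was 54.0%. The cAMP response element (TGACGTCA, in 1.36% of entries) and a Smad-binding element (CAGACA, in 10.3%) were also searched, and these letters were in none of the 4 stretches.

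Tgfb1 had the highest level of the genes per kb of exon. The exons of all annotated transcripts of a gene were merged to give this length, which can exceed that of any single transcript. Its mean over the 11 libraries was 100.9 CPM per kb of exon (range, 86.28 to 111.9), against 25.83 for Tgfbr2, the next in order. Ltbp4 (17.75 CPM per kb), Tgfbr3 (17.36), Ltbp3 (16.83), Ltbp2 (14.61), Tgfb3 (14.43), Tgfbr1 (10.83) and Ltbp1 (9.672) followed, and Tgfb2 was lowest at 4.797 CPM per kb. The ranges over libraries of Tgfb1 and Tgfbr2 did not overlap, nor did those of Ltbp1 and Tgfb2, whereas every other pair of neighbours in the order overlapped. Tgfbr2 was nevertheless above Ltbp4 in all 11 libraries, while Ltbp2 was above Tgfb3 in 6 of 11. The level of Ltbp4 was scaled in its own table, apart from those of the other genes. Of the summed CPM per kb of the 3 ligands, Tgfb1 made up 84.2% ± 6.08 (SD, n = 4) in controls and 83.9% ± 3.33 (SD, n = 7) in BMAd-DTA mice. Tgfb3 made up 12.1% ± 5.60 and 11.9% ± 3.20, and Tgfb2 3.72% ± 0.653 and 4.18% ± 0.689.

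**Figure D1:**
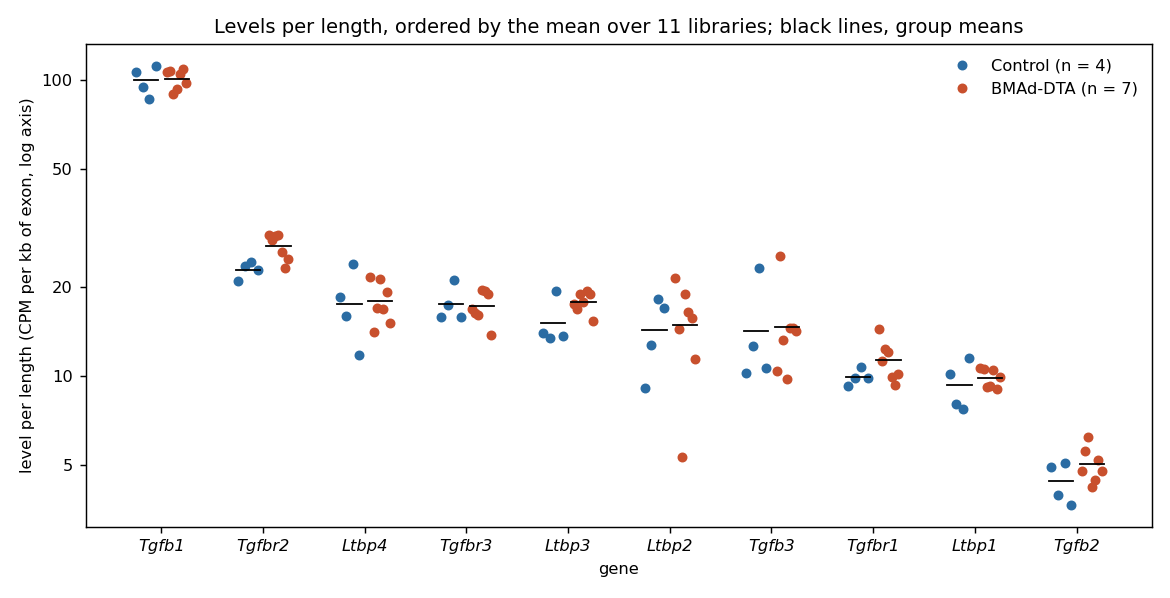
Level per length (CPM per kb of exon, log axis) of each gene in every library, blue for the 4 controls and red for the 7 BMAd-DTA mice, with group means as black lines. Tgfb1 lies between 86.28 and 111.9 CPM per kb and Tgfb2 between 3.662 and 6.222. The other 8 genes form a continuous range below Tgfb1. The low end of that range, Ltbp2 at 5.318 in BMAd-DTA 3, lies within the range of Tgfb2.

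None of the 10 genes differed between BMAd-DTA and control mice at an adjusted p under 0.05 (edgeR's quasi-likelihood test, adjusted by Benjamini-Hochberg over the 16496 genes tested). That limit was passed by 13 genes, or 0.0788%. DESeq2 likewise called 0 of the 9 genes in its table, against 5.53% of the genes for which it gave an adjusted p. At an unadjusted p under 0.05 edgeR placed 2 of the 9 higher in BMAd-DTA mice, Tgfbr2 and Ltbp3, where 7.89% of all genes met that limit in this direction. The estimates were above 0 for 9 of the 10 genes and below 0 for Tgfbr3, where 50.4% of all genes tested were above 0. The median log2 fold change of the 9 genes was 0.08, beside 0.0018 over all genes tested. In none of the 9 were the groups completely apart, which 2.81% of all genes tested showed.

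**Figure D2:**
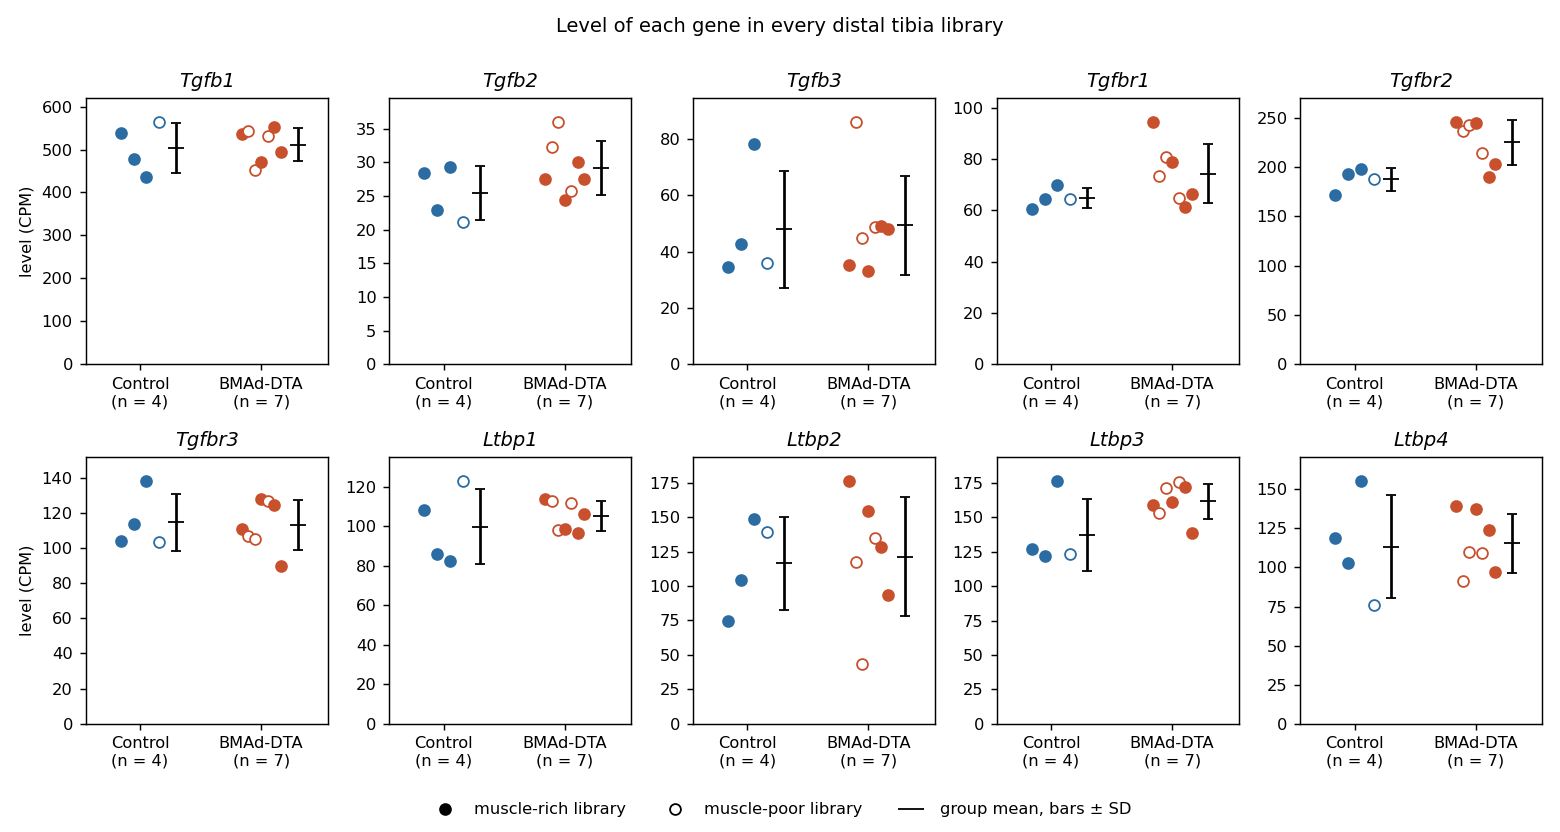
CPM of each of the 10 genes in every library, with filled circles for muscle-rich and open circles for muscle-poor libraries, and the group mean ± SD beside the points (4 controls, 7 BMAd-DTA). For Tgfbr2, 6 of the 7 BMAd-DTA libraries lie above every control, and for Ltbp3 all 7 lie above 3 of the controls, which are at 121.6 to 126.8 CPM.

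Tgfb1 (ENSMUSG00000002603, chr7:25687002-25705077, plus strand) encodes TGF-β1, the main ligand of bone matrix and of platelets. Its level was 538.5, 477.8, 435.0 and 564.3 CPM in the 4 controls, and in the 7 BMAd-DTA mice the lowest was 452.7, the median 530.6 and the highest 551.8 CPM. Every BMAd-DTA value lay within the range of the controls. The fitted log2 fold change was 0.02 ± 0.08 (SE, 95% interval -0.16 to 0.20, edgeR adjusted p = 0.932). Of all 10 genes Tgfb1 had the narrowest range, with the highest library only 1.30 times the lowest.

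Tgfb2 (ENSMUSG00000039239, chr1:186622792-186705989, minus strand) encodes TGF-β2, which depends most on betaglycan for receptor binding. The controls were at 28.38, 22.91, 29.31 and 21.21 CPM, and the BMAd-DTA mice had a lowest value of 24.37, a median of 27.60 and a highest of 36.03 CPM. Of the BMAd-DTA mice 3 were above every control and 4 were among them. This gave a log2 fold change of 0.19 ± 0.12 (SE, 95% interval -0.07 to 0.46, edgeR adjusted p = 0.457). The 2 highest values, 36.03 and 32.26 CPM, came from the muscle-poor BMAd-DTA libraries 3 and 2. Within the 7 muscle-rich libraries the groups averaged 26.9 ± 3.46 (SD, n = 3) and 27.4 ± 2.36 CPM (SD, n = 4), and the log2 fold change was 0.03.

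Tgfb3 (ENSMUSG00000021253, chr12:86056745-86079041, minus strand) encodes TGF-β3, a ligand of mesenchymal and epithelial development. It was at 34.50, 42.64, 78.41 and 36.04 CPM in controls and at a lowest of 33.00, a median of 47.96 and a highest of 86.13 CPM in BMAd-DTA mice. In each group 1 mouse, control 3 and BMAd-DTA 2, was far above the others, and the rest of both groups lay between 33.00 and 49.25 CPM. The log2 fold change was 0.04 ± 0.27 (SE, 95% interval -0.53 to 0.62, edgeR adjusted p = 0.960). The spread within groups (SD, 0.48 on the log2 scale) was wider than that of 93.8% of the 12973 genes averaging 50 counts or more. In the 7 muscle-rich libraries the estimate was -0.33 (edgeR adjusted p = 0.691).

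Tgfbr2 (ENSMUSG00000032440, chr9:116084293-116175360, minus strand), the type II receptor that binds ligand first, had the largest estimate of the 10 genes. The 4 controls were at 171.3, 192.9, 198.3 and 187.4 CPM, and the 7 BMAd-DTA mice at a lowest of 189.3, a median of 236.5 and a highest of 245.6 CPM. Of the BMAd-DTA mice 6 were above every control, and BMAd-DTA 6, at 189.3 CPM, was among them. The means were 187.5 ± 11.68 (SD, n = 4) and 225.2 ± 22.81 CPM (SD, n = 7). The fitted difference was 1.20-fold, a log2 fold change of 0.26 ± 0.08 (SE, 95% interval 0.09 to 0.44). In edgeR its adjusted p was 0.133, from an unadjusted p of 0.00661. DESeq2 gave an adjusted p of 0.0520. The exact permutation test over the 330 divisions of the mice, on log2 CPM, gave p = 0.0152 for this gene alone (two-sided). Leaving out any 1 mouse kept the log2 fold change between 0.22 and 0.30 with adjusted p from 0.105 to 0.404. Muscle-rich libraries averaged 187.5 CPM in controls and 220.7 CPM in BMAd-DTA mice, and in the muscle-poor the 1 control had 187.4 CPM against a mean of 231.2 CPM in 3 BMAd-DTA mice.

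Tgfbr1 (ENSMUSG00000007613, chr4:47353222-47414931, plus strand), the type I receptor kinase that signals to the SMADs, was at 60.35, 64.48, 69.90 and 64.50 CPM in controls. In BMAd-DTA mice it ran from 61.05 to 94.39 CPM with a median of 73.13 CPM. Of the BMAd-DTA mice 4 were above every control and the other 3 were within the control range. The controls were tightly grouped (SD, 3.92 CPM, n = 4) and the BMAd-DTA mice were not (SD, 11.52 CPM, n = 7). The log2 fold change was 0.19 ± 0.11 (SE, 95% interval -0.04 to 0.43, edgeR adjusted p = 0.393).

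Tgfbr3 (ENSMUSG00000029287, chr5:107106570-107289629, minus strand), which encodes the co-receptor betaglycan, was the only 1 of the 10 genes with an estimate below 0. It was at 103.9, 113.7, 137.8 and 103.2 CPM in controls and at a lowest of 89.73, a median of 110.5 and a highest of 128.1 CPM in BMAd-DTA mice. Of the BMAd-DTA values 6 fell within the control range and 1 was below it. The difference was -0.02 ± 0.11 on the log2 scale (SE, 95% interval -0.25 to 0.21, edgeR adjusted p = 0.951). Its exons share 297 bases with those of another gene model on the same strand, Gm43422, so reads there are uncertain.

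Ltbp1 (ENSMUSG00000001870, chr17:75005568-75392512, plus strand) encodes the binding protein first found with latent TGF-β of platelets. The controls were at 108.4, 85.80, 82.67 and 122.7 CPM, and the BMAd-DTA mice at a lowest of 96.39, a median of 106.2 and a highest of 114.0 CPM. All 7 BMAd-DTA mice lay inside the control range. The log2 fold change was 0.08 ± 0.10 (SE, 95% interval -0.15 to 0.30, edgeR adjusted p = 0.770).

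Ltbp2 (ENSMUSG00000002020, chr12:84783212-84876532, minus strand) encodes the member that does not hold latent TGF-β and that associates with elastic fibres. It varied most of the 10 genes, at 74.73, 104.3, 148.6 and 138.9 CPM in controls and at a lowest of 43.52, a median of 128.6 and a highest of 175.9 CPM in BMAd-DTA mice. Both extremes were BMAd-DTA mice, with 2 above every control and 1 below, and the highest library was 4.04 times the lowest. Its log2 fold change was 0.06 ± 0.29 (SE, 95% interval -0.58 to 0.69, edgeR adjusted p = 0.952). Its spread within groups (SD, 0.60 on the log2 scale) was wider than that of 96.2% of the genes averaging 50 counts or more.

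Ltbp3 (ENSMUSG00000024940, chr19:5740904-5758532, plus strand) encodes a binding protein whose loss in mice and people alters the skeleton and teeth. The controls were at 126.8, 121.6, 176.0 and 123.6 CPM, and the BMAd-DTA mice at a lowest of 138.6, a median of 161.0 and a highest of 175.7 CPM. All 7 BMAd-DTA mice were above 3 of the controls, and all were below control 3. The fit gave a 1.18-fold difference, a log2 fold change of 0.24 ± 0.10 (SE, 95% interval 0.02 to 0.46). In edgeR its adjusted p was 0.267, from an unadjusted p of 0.0381. The exact permutation test gave p = 0.0667 (two-sided, 330 divisions). This value rested on 1 library. Without control 3 the log2 fold change was 0.38 (edgeR adjusted p = 0.0393), and without any other single mouse it was at most 0.27 with adjusted p of at least 0.198. In the 7 muscle-rich libraries, where control 3 is 1 of 3 controls, it was 0.15 (adjusted p = 0.717).

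Ltbp4 (ENSMUSG00000040488, chr7:27305136-27337692, minus strand) encodes a binding protein of elastic tissue that tethers TGF-β1 less tightly. From the per-library counts it was at 119.1, 102.9, 155.0 and 76.17 CPM in controls, and at a lowest of 91.18, a median of 109.9 and a highest of 139.5 CPM in BMAd-DTA mice. The BMAd-DTA mice all lay between the extremes of the controls. The log2 fold change was 0.03 ± 0.17 (SE, 95% interval -0.33 to 0.39, edgeR adjusted p = 0.957 over the 16668 genes of that table). By the ratio of class means, Ltbp4 differed more between the muscle classes than any other of the 10 genes, at 97.31 to 155.0 CPM in the muscle-rich and 76.17 to 109.9 CPM in the muscle-poor libraries.

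**Figure D3:**
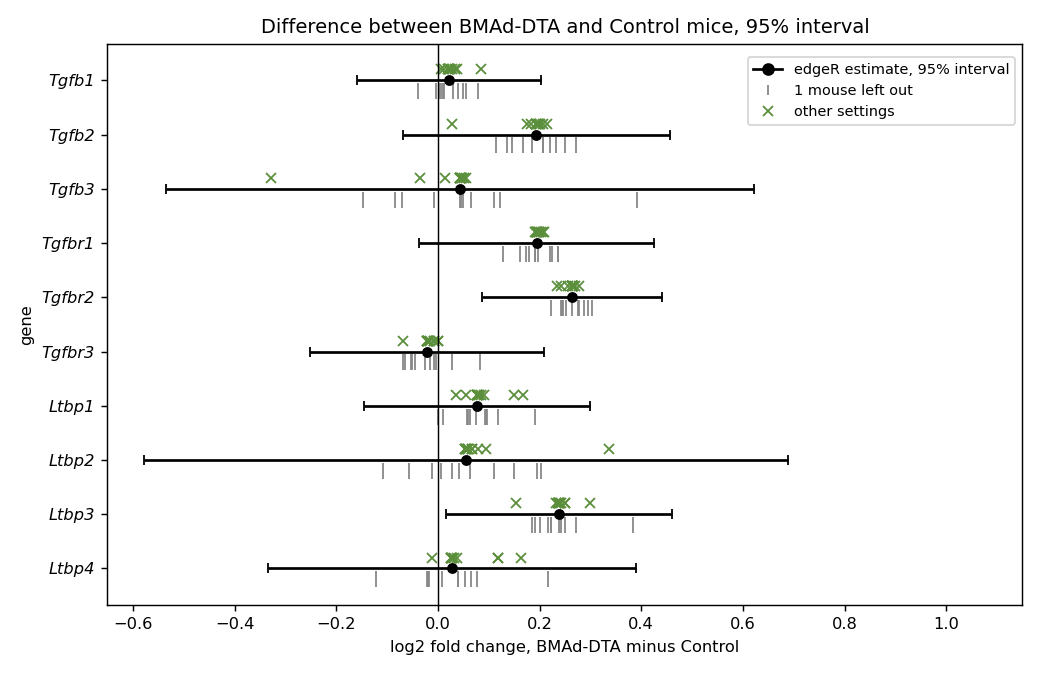
Log2 fold change (BMAd-DTA minus Control) of each of the 10 genes with its 95% interval in edgeR (black), with each mouse left out in turn (grey) and under the other settings (green). The intervals of Tgfbr2 (0.09 to 0.44) and Ltbp3 (0.02 to 0.46) exclude 0 before adjustment, and those of Tgfb3 and Ltbp2 are the widest.

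Ratios within a library were compared to ask whether genes of 1 role differed in their change, since such ratios do not depend on scaling between libraries. Across 12 pairs, none passed (exact permutation test, two-sided, Benjamini-Hochberg over 12 pairs, lowest adjusted p = 0.682). The lowest unadjusted p was that of a receptor pair. Tgfbr2 relative to Tgfbr3 was 0.72 ± 0.14 on the log2 scale in controls (SD, n = 4) and 0.997 ± 0.24 in BMAd-DTA mice (SD, n = 7), higher than every control in 5 of 7 (exact permutation p = 0.0727, adjusted p = 0.682). Tgfbr1 relative to Tgfbr2 was -1.53 ± 0.04 in controls and -1.61 ± 0.11 in BMAd-DTA mice, and it was below every control in 6 of 7 and above every control in the other (exact permutation p = 0.221, adjusted p = 0.682). For the ligands, Tgfb1 relative to Tgfb2 was 4.31 ± 0.35 in controls and 4.14 ± 0.24 in BMAd-DTA mice (exact permutation p = 0.361, adjusted p = 0.866), and the ratio ran from 12.5 to 26.5 over the 11 libraries.

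Among the 45 pairs of the 10 genes, 2 had a Pearson r above 0.7 in size for log2 CPM over the 11 libraries, and the median r was 0.10. These are descriptions over libraries that include both groups and both muscle classes, and no test was applied. The kinase receptors Tgfbr1 and Tgfbr2 ran together (r = 0.87, Spearman's rho = 0.93). The r was 0.88 once each group's mean was removed, 0.92 in the 7 muscle-rich libraries and 0.89 without the 2 libraries farthest from the median of Tgfbr1. Tgfb1 and Ltbp1 were the second pair (r = 0.78, rho = 0.65, 0.79 with group means removed, 0.72 in muscle-rich libraries and 0.68 without the 2 farthest libraries). Tgfb3 and Ltbp2, the most variable genes, did not vary together (r = 0.05).

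**Figure D4:**
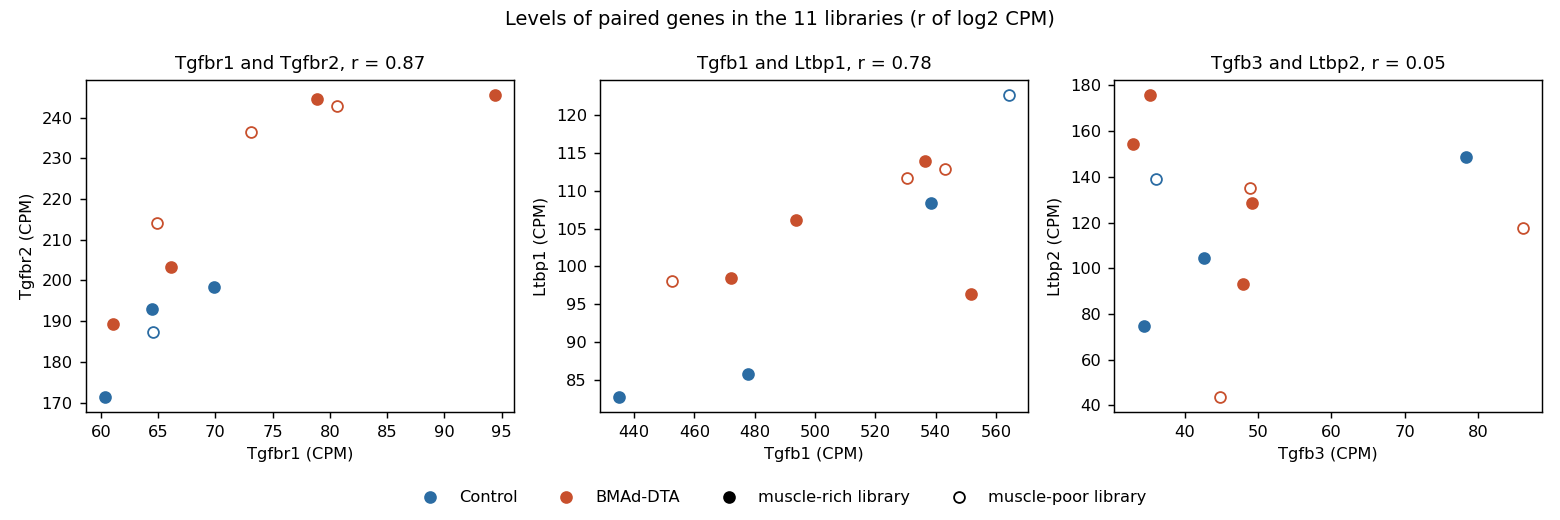
CPM of Tgfbr2 against Tgfbr1, Ltbp1 against Tgfb1 and Ltbp2 against Tgfb3 in the 11 libraries, blue for controls and red for BMAd-DTA, open circles for muscle-poor libraries. The points of Tgfbr1 and Tgfbr2 rise together from 60.35 and 171.3 CPM to 94.39 and 245.6 CPM, while those of Tgfb3 and Ltbp2 are scattered.

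Set against summed cell type markers over the same 11 libraries (150 pairs of a gene and a marker list), Tgfb1 was closest to platelets and megakaryocytes (r = 0.85, rho = 0.74, 0.90 with group means removed, 0.80 in muscle-rich libraries and 0.73 without the 2 farthest libraries). These 10 markers summed to 1244 to 2356 CPM in controls and 1056 to 1975 CPM in BMAd-DTA mice, with Gp1bb at 0 in 1 library. Ltbp1 was also closest to platelets and megakaryocytes (r = 0.69). Tgfbr1 and Tgfbr2 were both closest to osteoclasts (r = 0.82 each, 0.76 and 0.71 with group means removed), and Tgfbr2 was as close to T lymphocytes (r = 0.82, 0.62 with group means removed). Without the 2 farthest libraries Tgfbr2 was closer to T lymphocytes (r = 0.86) and to osteoblasts and osteocytes (r = 0.84) than to osteoclasts (r = 0.75). Over all 11 libraries its r with osteoblasts and osteocytes was 0.75, and 0.46 with group means removed. The 7 osteoclast markers all had counts in every library and summed to 1332 to 2872 CPM in controls and 1804 to 4645 CPM in BMAd-DTA mice. Mmp9 alone was the largest part of these sums, at means of 1301 and 1782 CPM. Tgfbr3 had its highest r with endothelium (r = 0.72, 0.73 with group means removed), but that with adipocytes was higher once group means were removed (0.69 and 0.83). Without the 2 farthest libraries the r of Tgfbr3 was 0.60 with endothelium and 0.39 with adipocytes. Ltbp4 was closest to pericytes and smooth muscle (r = 0.71). Without the 2 farthest libraries that r was 0.52, and Ltbp4 was closer to endothelium (r = 0.76). Tgfb2 was closest to fibroblasts (r = 0.73, 0.41 without the 2 farthest libraries) and Tgfb3 to B lymphocytes (r = 0.61 and 0.42). Ltbp2 was closest to endothelium (r = 0.58 and 0.74). In the muscle-rich libraries Ltbp2 was closest to osteoclasts (r = 0.99), where over all 11 libraries that r was -0.02. Ltbp3 was closest to fibroblasts over all libraries (r = 0.80) and about as close to pericytes and smooth muscle with group means removed (0.68, against 0.66 for fibroblasts), and without the 2 farthest libraries these were 0.79 and 0.57. The part of any cell type in the levels or differences of these genes was not tested.

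The single genes whose levels most resembled each of the 10, among those averaging 50 counts or more, are likewise given without a test. For each gene they are the 2 highest among 12973, a choice that in itself favours a high r. For Tgfbr1 the closest was Itgav, the integrin αv chain that binds the latency peptide (r = 0.97, 0.97 with group means removed and 0.98 in muscle-rich libraries), followed by Rai14 (r = 0.93). For Tgfbr2 they were Klf12 (r = 0.97) and Pik3r3 (r = 0.96). Tgfb1 was closest to Ilk, the integrin-linked kinase (r = 0.93), and to Adgrg1 (r = 0.91). For Tgfb2 they were Pfdn5 (r = 0.92) and Deaf1 (r = 0.90). Tgfb3 was closest to Kat8 and Irx3 (r = 0.91 each), but without the 2 libraries farthest from its median r was 0.66 for Kat8 and 0.85 for Irx3. Tgfbr3 was closest to Ushbp1 and Dnajb5 (r = 0.93 each). For the binding proteins the closest were Wdr82 (r = 0.93) and Abitram (r = 0.91) for Ltbp1, Epb41l4b (r = 0.95) and Enpep (r = 0.93) for Ltbp2, Epn2 (r = 0.94) and Cyp4f13 (r = 0.94) for Ltbp3, and Jag1, a Notch ligand (r = 0.92), and Amotl1 (r = 0.90) for Ltbp4. Several of these r were lower without the 2 libraries farthest from the gene's median. They were then 0.73 for Epb41l4b, Enpep and Amotl1, 0.77 for Deaf1 and Rai14, and 0.80 for Adgrg1 and Jag1. The rest ran from 0.82 (Wdr82) to 0.96 (Klf12), apart from those of Tgfb3.

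Of 70 other genes of the pathway in 4 lists, 68 were tested and 2 were called by edgeR, both higher in BMAd-DTA mice, where 0.0788% of all genes tested were called. DESeq2 called 13, of which 12 were higher, against 5.53% of all genes. The median log2 fold change of the 68 was 0.16, and 53 of the 68 estimates were above 0, where 50.4% of all genes tested were. None of these counts is independent of the marker levels given above, since 7 of the 70 genes are also markers of a cell type, among them Col1a1 for osteoblasts and osteocytes. The lists were also drawn up with earlier results of these data known.

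Among the 18 tested genes that activate or anchor latent TGF-β, 1 rose in edgeR and 4 in DESeq2, with 15 estimates above 0 and a median log2 fold change of 0.17. The gene that rose in both was Mmp2, a matrix metalloproteinase that can release latent TGF-β, at 87.30 to 102.5 CPM in controls and 137.0 to 205.7 CPM in BMAd-DTA mice (log2 fold change 0.83 ± 0.12 SE, edgeR adjusted p = 0.0326). Every BMAd-DTA mouse was above every control. Bmp1, a protease that cuts LTBP-1 and procollagen (0.94, DESeq2 adjusted p = 0.0185), Fbn2, the microfibril protein fibrillin-2 (0.69, 0.0235), and Mmp14, a membrane-bound metalloproteinase (0.54, 0.00997), were called by DESeq2 alone, with edgeR adjusted p of 0.0895, 0.124 and 0.0992. The lowest estimates were those of Lrrc32, which holds latent TGF-β on the cell surface (-0.18), and Itgb3, the integrin β3 chain (-0.11), neither past the test. Itgb6 was too low to test, with at most 6 counts in a library.

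The 14 genes listed as co-receptors and ligand traps, not all of which are either, had 1 call in edgeR and 3 in DESeq2, all higher. Of their estimates 10 were above 0, with a median of 0.23. Vasn, whose product vasorin binds and traps TGF-β, was at 33.65 to 41.89 CPM in controls and 50.14 to 73.19 CPM in BMAd-DTA mice (log2 fold change 0.75 ± 0.12 SE, edgeR adjusted p = 0.0374). The groups did not overlap. Bgn, a matrix proteoglycan of bone that binds TGF-β, did not overlap either, at 832.5 to 1130 CPM against 1376 to 1534 CPM (0.50 ± 0.09 SE, edgeR adjusted p = 0.0531, DESeq2 adjusted p = 1.06e-06). Bambi, a decoy receptor, had a log2 fold change of 0.70 (edgeR adjusted p = 0.106, DESeq2 adjusted p = 0.0110). The largest estimate was that of Cd109 (0.82 ± 0.27 SE, edgeR adjusted p = 0.154), a co-receptor that dampens signalling. The lowest were Nrp1 (-0.25) and Acvrl1, itself a type I receptor gene (-0.23), neither past the test.

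The SMADs and their regulators had 13 of 16 estimates above 0 and a median of 0.08 (log2 fold change). None of the 16 was called by edgeR. At an unadjusted p under 0.05 in edgeR 2 were higher, a limit met in this direction by 7.89% of all genes tested, and 1 was lower. DESeq2, which called 5.53% of all genes in either direction, called only Usp15, a deubiquitinase that acts on receptors and SMADs. Usp15 was lower (log2 fold change -0.34 ± 0.09 SE, edgeR adjusted p = 0.0967, DESeq2 adjusted p = 0.0186). The receptor-regulated Smad2 and Smad3 had log2 fold changes of 0.03 and 0.06. Pmepa1 (0.34) and Ldlrad4 (0.34), which restrain SMAD activation, had the largest estimates, and Ppm1a (-0.11), a SMAD phosphatase, was lowest after Usp15. The whole list summed to 862.9 to 963.5 CPM in controls and 823.6 to 966.6 CPM in BMAd-DTA mice.

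Of 20 tested TGF-β target genes edgeR called 0, while 7 had an unadjusted p under 0.05, all higher (7.89% of all genes tested), and DESeq2 called 5, all higher (5.53% of all genes, in either direction). The median log2 fold change was 0.19, with 15 estimates above 0. Col1a1, the α1 chain of type I collagen, had the largest estimate, at 1245 to 6226 CPM in controls and 7609 to 18040 CPM in BMAd-DTA mice (1.35 ± 0.39 SE, edgeR adjusted p = 0.115, DESeq2 adjusted p = 0.00962). The others that DESeq2 called were Postn, which encodes the matrix protein periostin (1.12, DESeq2 adjusted p = 0.00487), Timp1, an inhibitor of metalloproteinases (1.07, 0.00619), Cdkn1a, the cell cycle inhibitor p21 (0.47, 0.00117), and Snai2, a transcription factor (0.33, 0.0452). None of these 5 passed in edgeR, where their adjusted p ran from 0.0675 to 0.127. Tagln (-0.27), a smooth muscle gene, and Dact1 (-0.22) had the lowest estimates, neither past the test, and Tgfbi, Acta2 and Klf10, an early response gene, had log2 fold changes of -0.09, -0.13 and 0.04.

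**Figure D5:**
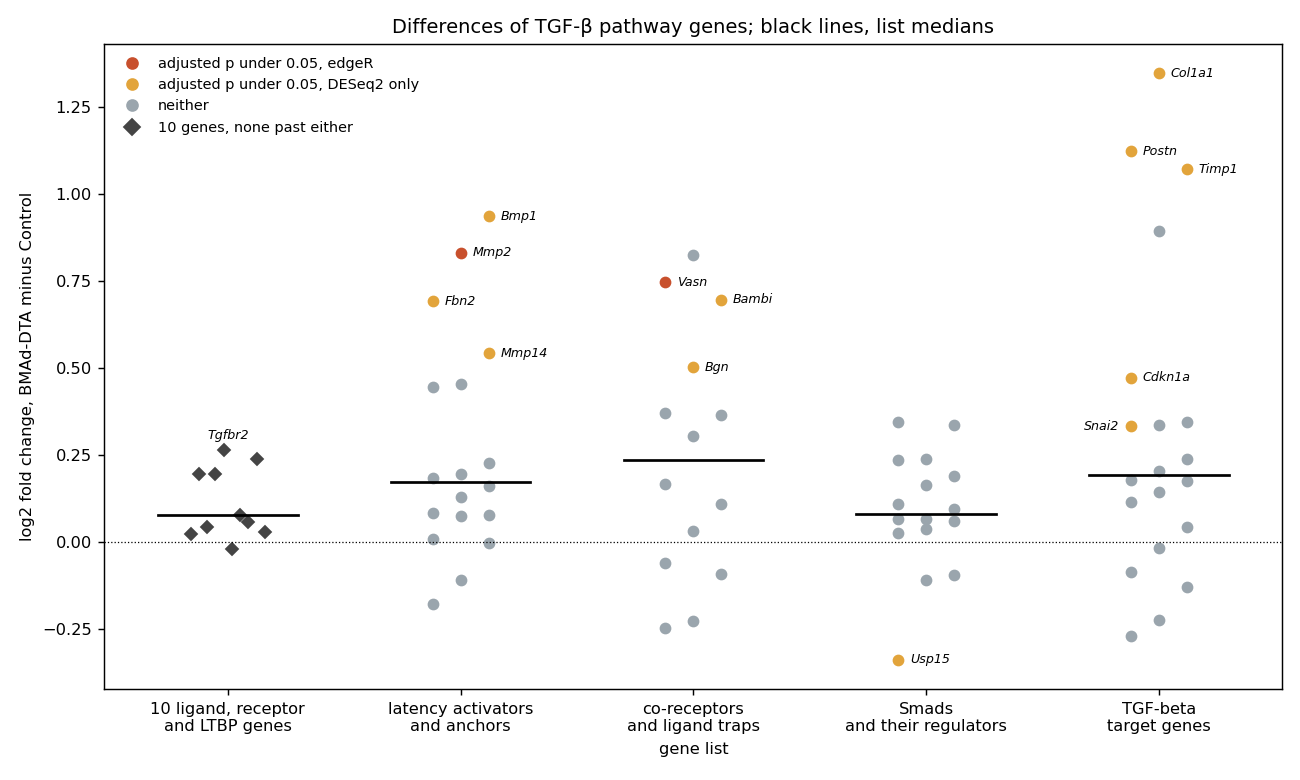
Log2 fold change (BMAd-DTA minus Control) of the 10 ligand, receptor and LTBP genes (diamonds) and of the tested genes of 4 pathway lists (circles), red where edgeR called the gene, orange where DESeq2 alone did and grey otherwise; black lines are medians, over 9 genes for the first column. The diamonds lie between -0.02 and 0.26, while Col1a1, Postn and Timp1 lie above 1.

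The calls of Mmp2 and Vasn depended on the libraries included. With the muscle score as a covariate their log2 fold changes were 0.79 and 0.77, with an edgeR adjusted p of 0.0666 for each. In the 7 muscle-rich libraries they were 0.75 and 0.74 (adjusted p = 0.0612 and 0.0456). With 1 mouse left out in turn Mmp2 was called in 6 of 11 fits and Vasn in 5 of 11, at log2 fold changes of 0.78 to 0.88 and 0.70 to 0.82. Summed marker levels of several cell types ran higher in BMAd-DTA mice, those of osteoblasts and osteocytes and of osteoclasts, given above, among them. All 7 osteoclast markers had estimates above 0, with a median log2 fold change of 1.12. In edgeR 5 of them had an unadjusted p under 0.05, where 7.89% of all genes tested met that limit and were higher. None of the 7 passed after adjustment in edgeR, and DESeq2 called 1, Atp6v0d2 (DESeq2 adjusted p = 0.0344). All 6 T lymphocyte markers were also above 0, 4 with an unadjusted p under 0.05 (sums of 77.65 to 128.6 CPM in controls and 110.7 to 167.1 CPM in BMAd-DTA mice). The same held for all 6 B lymphocyte markers, 1 with an unadjusted p under 0.05. No marker of these lymphocyte lists passed after adjustment in edgeR or DESeq2. The 10 chondrocyte markers summed to 453.1 to 726.6 CPM against 784.6 to 972.3 CPM, with Matn1 and Matn3 at 0 in some libraries. Most of that difference was Col2a1, at means of 216.8 and 468.1 CPM (edgeR adjusted p = 0.0675), and the median log2 fold change of this list was 0.17. The 6 fibroblast markers, all with counts in every library, summed to 996.1 to 1292 CPM against 1257 to 1723 CPM. The part of these cell types in the differences of the pathway genes was not tested.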

How the data were processed

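Per the labels and the study's methods, the authors checked reads with FastQC 0.11.9 and aligned them to mm10 with STAR. Which annotation release they used is not given in the sources used here. The authors deposited raw counts for each library, unnormalized, and a merged table identical to their read-strand column. Positions and exon lengths came from GENCODE M21, joined by unversioned identifier. Ltbp4 was fitted in the per-library counts.

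Testing used edgeR 4.0.16 in R 4.3.3 (filterByExpr, TMM scaling, quasi-likelihood test, genotype as the only term, two-sided). Steps were tested on simulated data. CPM are TMM-scaled, and log2 CPM carry a prior count of 2. Exact permutation over 330 divisions of the mice cannot give a p below 0.00303. Nothing in the labels says whether mice shared a litter or batch.

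The members and lists were chosen with earlier results of these data known. An item of the pathway lists is not reported here. The text names the 10 members, the genes of each pathway list called by edgeR or DESeq2, the 2 highest and 2 lowest of each list, and the 2 genes most like each member. Smad2, Smad3, Tgfbi, Acta2, Klf10, Retn and the marker list closest to each member were chosen after their values were seen. Alternatives were DESeq2 1.42.0, limma-voom 3.58.1 with quality weights, other scalings, filters and count columns, 26 globin and mitochondrial genes left out, a muscle covariate and each mouse left out. Muscle classes were added after seeing the data.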

Additional observations from a re-analysis of the deposited data

Results flagged for a closer look

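Among 20 groups examined (10 genes in 2 genotypes), 2 held a mouse far from the rest by Dixon's criterion, where chance gives about 1 in 20. Ltbp3 in control 3 was 176.0 CPM, with the nearest other control at 126.8 CPM, a gap of 0.888 of the range of the 4 controls on the log2 CPM scale. Tgfb3 in BMAd-DTA 2 was 86.13 CPM, with the next BMAd-DTA mouse at 49.25 CPM, a gap of 0.583 of the range of the 7 on that scale. Control 3 had the highest control value of 8 of the 10 genes, the lowest of the other 2 (Tgfb1 and Ltbp1), and the highest skeletal muscle score of the 11 libraries (6.02). BMAd-DTA 2 was muscle-poor and had the highest summed level of B lymphocyte markers, 1428 CPM, against 316.6 to 1059 CPM in the other libraries. Their part in the 2 outlying values was not tested.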

How the results depend on the processing

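No setting that kept all 11 mice put any of the 9 genes of the merged table past the threshold, nor did the 7 muscle-rich libraries, and with 1 mouse left out the count ran from 0 to 1 and was 1, Ltbp3, without control 3. The median log2 fold change of the 9 genes stayed above 0, from 0.067 to 0.15 over the other settings and from 0.010 (without control 2) to 0.24 (without control 3) with 1 mouse left out. Estimates near 0 changed sign. With 1 mouse left out, Tgfb1 ran from -0.039 to 0.080, Tgfb3 from -0.15 to 0.39, Tgfbr3 from -0.068 to 0.083, Ltbp2 from -0.11 to 0.20 and Ltbp4 from -0.12 to 0.22. Tgfb3 was -0.33 in the 7 muscle-rich libraries and -0.034 with muscle class as a covariate, Ltbp4 was -0.012 in the muscle-rich libraries and Tgfbr3 was 0.00069 in limma-voom. Those of Tgfb2, Tgfbr1, Tgfbr2, Ltbp1 and Ltbp3 kept their sign under these settings, but Ltbp1 ran from 0.00027 (without control 3) to 0.19 (without control 4), and Tgfb2 was 0.12 without control 4 and 0.027 in the muscle-rich libraries.

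No ratio of 12 passed under any setting. The closest was Tgfbr1 to Tgfbr2 without BMAd-DTA 1 (difference in log2 ratio -0.12, exact permutation p = 0.00476, adjusted p = 0.0571). With 1 mouse left out, the difference in log2 ratio ran from -0.37 to 0.13 for Tgfb1 to Tgfb3, -0.060 to 0.32 for Tgfb2 to Tgfb3, -0.12 to 0.34 for Ltbp1 to Ltbp2, -0.21 to 0.32 for Ltbp1 to Ltbp4 and -0.30 to 0.22 for Ltbp2 to Ltbp4. In the muscle-rich libraries it turned to 0.055 for Tgfb1 to Tgfb2, 0.35 for Tgfb1 to Tgfb3, -0.18 for Ltbp1 to Ltbp2, 0.0047 for Ltbp1 to Ltbp3, 0.18 for Ltbp2 to Ltbp3 and 0.36 for Ltbp2 to Ltbp4.

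The count of 2 pathway genes was 13 in DESeq2, 0 with the muscle score or muscle class as a covariate and 1 in the muscle-rich libraries. With 1 mouse left out it ran from 0 (without control 1 or 2 or BMAd-DTA 1, 4 or 6) through 1 (without BMAd-DTA 3) to 7 (without control 3). The cause was not tested. The muscle-rich libraries and muscle class were chosen after seeing the data.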
